A study of Mus musculus with 6 samples.

Results

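In mouse 32D cells, transcript abundance was compared between the 3 libraries whose titles carry replicate number 2 and the 3 whose titles carry replicate number 1, pair by pair within the groups EV, sg2 and sg5. The genes described are those that the deposited tables type as protein-coding and whose FPKM averaged 1 or more over the 6 libraries, FPKM being a unit in which fragments are scaled to transcript length and library size. This rule took 10581 of the 21958 protein-coding genes and of the 47606 genes listed, and it left 11377 protein-coding genes below the limit. The nearest gene inside the limit was Uaca, with a mean of 1.00 FPKM, and the nearest outside it was Rab34, with 0.997 FPKM. The rule takes the mean over both numbers, so a gene low in 1 number could enter through the other alone.

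32D is a mouse myeloid progenitor line that depends on interleukin 3, and per the labels it was grown in IMDM medium with 1 ng/mL of it. In all 6 libraries dCas9-KRAB was present, the cutting-dead form of Cas9 fused to a repressor domain. The cells received lentivirus with an empty vector (EV), the guide sg2 or the guide sg5, and were kept under puromycin for a week. An enhancer of CEBPE is the subject of the series title, and the design text sets EV against the sg2/sg5 knock-down, so the comparison by number is not the one that the study names. The labels do not say whether a number stands for a culture, a day, an RNA extraction or a sequencing run, and from these files those readings cannot be told apart. Nor do they say that libraries of a group were grown separately, so each p-value reflects the spread among these 6 libraries, which may be technical. For sg5 replicate 2 the source name and genotype name sg2 in place of sg5, and the title was followed. Neither the guide sequences nor the promoter driving the repressor were used here.

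The libraries imply 31400000 to 40200000 fragments for number 1 and 38100000 to 46400000 for number 2, from the steps between low FPKM values. Protein-coding genes held 73.9% to 78.1% of the summed FPKM in number 1 and 59.2% to 64.1% in number 2, and genes under 200 nt held 6.77% to 9.67% and 15.4% to 21.5%. Protein-coding FPKM summed to 615998 to 633304 in number 1 and to 540791 to 558299 in number 2, so the same results are given below with other scalings where these change them. Markers chosen for the line were not all alike. Ptprc, the common leukocyte surface phosphatase, stood between 85.5 and 105.2 FPKM, and Prtn3, a protease of primary granules, between 234 and 372 FPKM. Elane was at 1.40 to 2.50 FPKM, and Mpo at 41.5 to 151 FPKM in number 1 and 12.3 to 14.8 FPKM in number 2. Kit, the stem cell factor receptor and also in this marker set, was listed at 0 in all 6 libraries.

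Growing myeloid progenitors answer interleukin 3 through JAK2 and STAT5, and the transcription factor Myc, paired with Max on the E-box, raises genes for ribosome building, nucleotide synthesis and glycolysis. The factor p53 and the FoxO factors act in the other sense: p53 slows the cell cycle through the inhibitor p21, and FoxO factors, active when growth signals weaken, raise genes for quiescence and for recycling in lysosomes. Granulocyte development follows C/EBP factors in turn, with Cebpa early and Cebpe late, and fills primary granules (Mpo, Elane) before specific granules (Ltf, Ngp). The results below are ordered by these roles.

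Stretches within the 250 bases before the RefSeq starts (GRCm38.p6) of 5 genes that the results turn on are shown first. Each is written 5′ to 3′ on its gene's strand. In Cdk4, Ldha and Ran, 3 growth genes that were lower in number 2, capitals mark the E-box letters CACGTG that Myc and Max recognise. In Ngp and Adam8, granule and secretion genes that were higher, capitals mark a match to the C/EBP consensus core TTGCNNAA. Counted back from the start, they cover bases 180 to 2 (Cdk4), 150 to 36 (Ldha), 150 to 90 (Ran), 150 to 70 (Ngp) and 250 to 180 (Adam8). Ngp had 2 matches in its 250 bases, of which 1 lies in the stretch shown. None of these stretches overlapped an exon of GENCODE M21. They are Cdk4 at chr10:127063355-127063533 (plus strand, 4 matches), Ldha at chr7:46845654-46845768 (plus strand, 2 matches), Ran at chr5:129020006-129020066 (plus strand, 1 match), Ngp at chr9:110419658-110419738 (plus strand, 1 match) and Adam8 at chr7:139992742-139992812 (minus strand, 1 match).
Cdk4: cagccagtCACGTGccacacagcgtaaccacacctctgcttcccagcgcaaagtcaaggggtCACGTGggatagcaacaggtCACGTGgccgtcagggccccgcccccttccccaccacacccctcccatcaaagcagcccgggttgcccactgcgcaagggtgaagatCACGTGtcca
Ldha: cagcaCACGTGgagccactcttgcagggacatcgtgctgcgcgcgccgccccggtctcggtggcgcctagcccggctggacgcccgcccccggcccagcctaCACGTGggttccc
Ran: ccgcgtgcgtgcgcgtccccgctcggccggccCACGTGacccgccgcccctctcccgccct
Ngp: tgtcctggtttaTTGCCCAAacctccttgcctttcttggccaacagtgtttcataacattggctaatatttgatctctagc
Adam8: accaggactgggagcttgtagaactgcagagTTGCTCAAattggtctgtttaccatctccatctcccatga

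Over promoter windows of 250 bases before to 50 after the start, both strands searched, 10407 windows matched 8168 of the 10581 genes by symbol. The E-box letters were in 28.3% of the windows of the Myc-responsive growth genes (13 of 46) and in 17.5% of those of ribosome biogenesis genes (14 of 80), beside 9.96% of the windows of all genes compared and 7.15% of all 32851 windows in the table. They were in 11.0% of the windows of genes lower in number 2 and in 9.40% of those of genes higher in it. With the 250 bases before the start alone, the Myc-responsive share stayed at 28.3%, and that of ribosome biogenesis genes was 7.50%, beside 8.28% of all genes compared. The C/EBP core was in 6 of 15 windows of specific and gelatinase granule genes (40.0%) and in 8.45% of the windows of all genes compared. For primary granule genes it was in 5 of 27 windows (18.5%). It was in 8.90% of the windows of genes higher in number 2 and in 7.67% of those of genes lower in it. Of the interferon-stimulated genes, 41.0% of windows held the letters GAAA, 2 bases of any kind and GAAA again, beside 3.08% of those of all genes compared. These letters were in 2.97% of the windows of genes higher in number 2 and in 3.33% of those of genes lower in it. These matches describe the letters of each window and are not measured binding.

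The 3 pairs differed in much the same way. The median absolute difference between the numbers, as log2(FPKM + 1), was 0.34 in the EV pair, 0.35 in the sg2 pair and 0.32 in the sg5 pair, while 2 libraries of the same number in different groups differed by 0.08 to 0.13. Across the 10581 genes the differences of 2 pairs correlated at Pearson's r of 0.841 to 0.863 and had the same sign in 83.4% to 85.0%, as a description over genes, which are not independent. All 3 pairs were positive for 3438 genes (32.5%), all 3 were negative for 4611 (43.6%), and the sign was mixed for 2532.

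A gene was called where limma, fitted over all 12929 genes of any type past the filter with the group as a term, gave a Benjamini-Hochberg adjusted p below 0.05 and all 3 pairs had the same sign. In number 2, 2165 of 10581 genes were called higher (20.5%) and 3205 lower (30.3%). Without a test, 2877 genes (27.2%) had all 3 number 2 libraries above all 3 of number 1, and 4060 (38.4%) had all 3 below. Most differences were small: 352 genes rose and 338 fell by at least 1 log2 unit, and 38 and 22 by at least 2. The median gene was at -0.07. Of the genes compared, 195 averaged under 1 FPKM in number 1 and so passed the filter through number 2 alone, 93 of them being called higher, and 74 passed through number 1 alone, 25 of them being called lower. Among the 10312 genes that averaged at least 1 FPKM in both numbers, 2072 were called higher and 3180 lower. Apart from the histones, no gene list below holds more than 2 genes that passed through 1 number alone. The split of calls moved with the scaling. With median-ratio scaling 2661 genes were called higher and 2635 lower, 50.2% of calls being higher in place of 40.3%, with quantile normalization 2421 and 2776 (46.6%), and with protein-coding genes scaled to 1 sum 3408 and 2027 (62.7%), where the median gene moved to 0.10. No gene called here was called in the other direction under the first or the last of these, and 1 was under quantile normalization. A fit with 1 library left out rests on 2 pairs: it called 1078 genes higher and 1623 lower without EV replicate 1, 1048 and 1639 without EV replicate 2, 991 and 1664 without sg2 replicate 1, and 962 and 1696 without sg2 replicate 2. Levels also bore on the direction, since the median difference ran from 0.09 in the lowest of 5 equal bins of genes by mean FPKM to -0.21 in the highest bin. In bulk RNA, fewer cells of a type and less RNA per cell cannot be told apart.

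**Figure D1:**
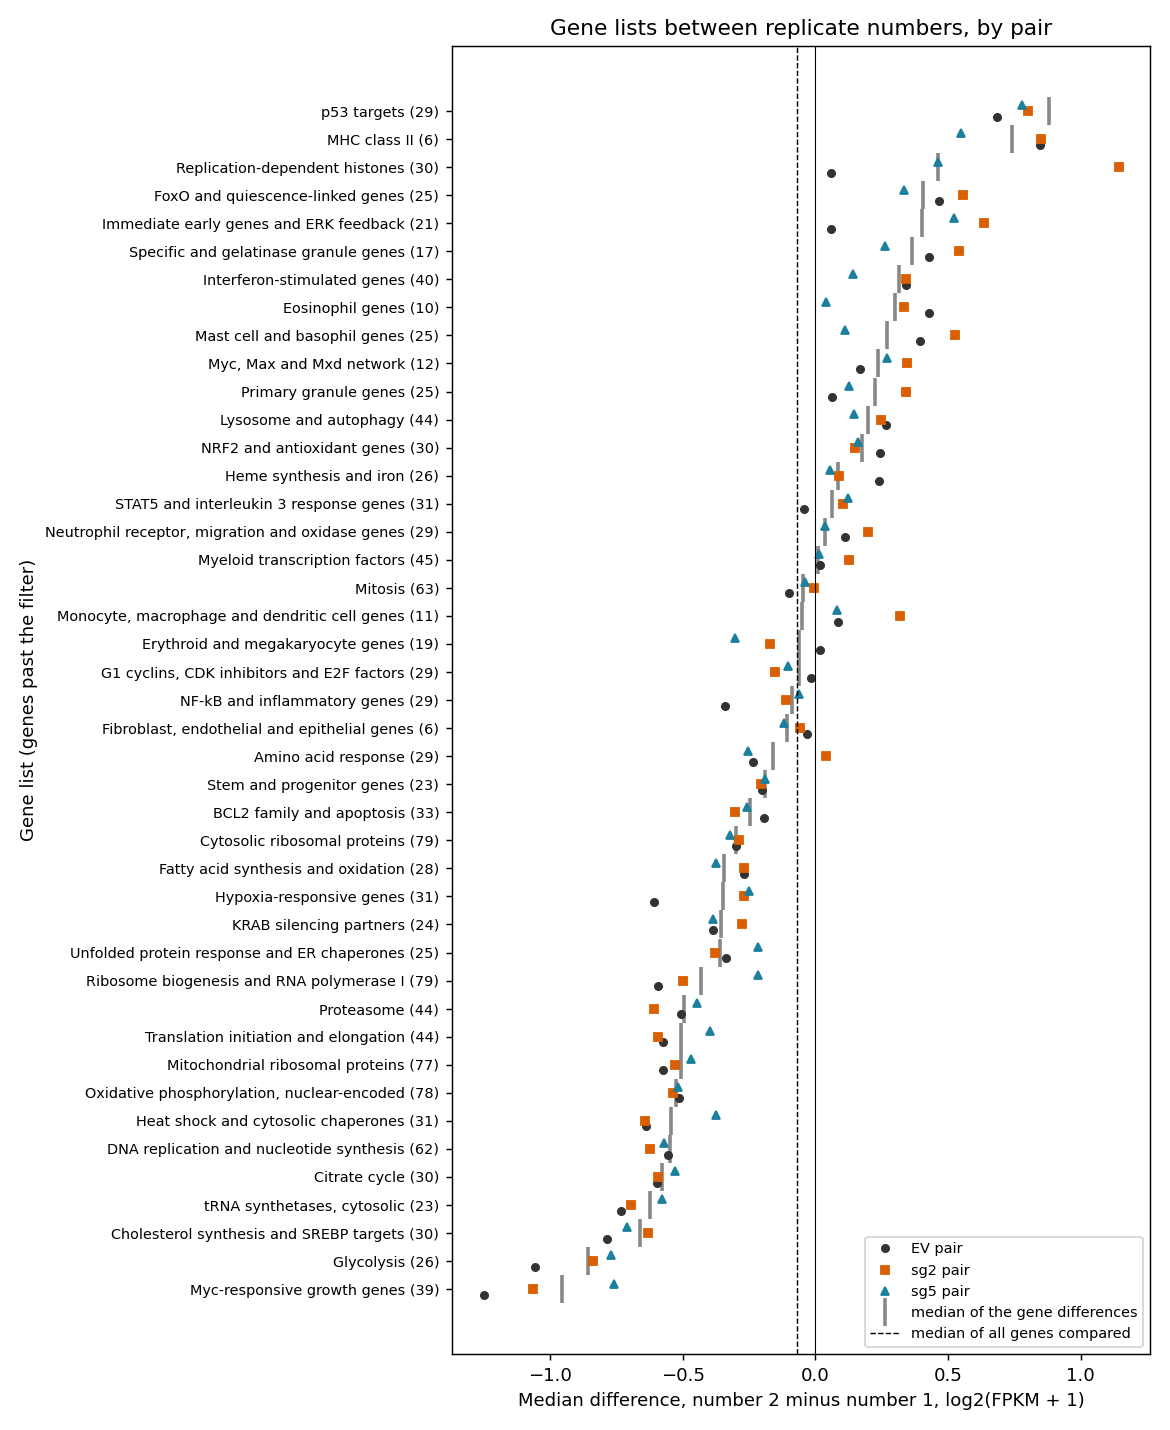
Median log2(FPKM + 1) difference, number 2 minus number 1, of each gene list in the EV, sg2 and sg5 pairs (points), for lists with at least 6 genes past the filter, ordered by the median of their genes' mean differences (bar) and the median of all 10581 genes as a dashed line at -0.07. Myc-responsive growth genes stand lowest at -0.95 and p53 targets highest at 0.88, and the pairs lie close together for most lists but apart for histones.

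Growth genes were lower in number 2. Of 39 Myc-responsive growth genes, 35 fell and 1 rose, with a median of -0.95 against -0.07 for all genes compared. Npm1, the nucleolar chaperone nucleophosmin, measured 1107, 1109 and 951 FPKM in number 1 and 266, 264 and 287 FPKM in number 2, in the order EV, sg2 and sg5 that is kept below. Every number 2 library was below every number 1 library, and the log2 difference was -1.95 (SE 0.09, limma adjusted p = 0.00167). Ran, the small GTPase of nuclear transport, named after its values were seen, measured 419.6, 365 and 320.5 FPKM against 139, 174 and 117 FPKM. The groups did not overlap, and the mean was 2.58-fold lower in number 2 (log2 difference -1.37, SE 0.12). The cyclin-dependent kinase gene Cdk4 stood at 532, 544 and 488 FPKM and at 214, 189 and 179 FPKM. There was no overlap between the numbers, with a log2 difference of -1.42 (SE 0.07). Nme2, a nucleoside diphosphate kinase, was among the 15 genes that fell most, from 257, 262 and 231 FPKM to 43.3, 40.4 and 34.9 FPKM. The mean was 6.32-fold lower in number 2, with the 3 libraries of each number apart. Npm1, Nme2 and the ribosomal protein genes have near-identical copies in the mouse genome, between which the authors' counting could have split fragments, and summed processed pseudogenes were also lower in number 2 in each pair (40514, 41571 and 39304 FPKM against 31746, 30152 and 29566 FPKM).

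Myc itself was lower in number 2 within every pair, at 34.5, 25.6 and 19.9 FPKM in number 1 and 21.1, 15.2 and 12.3 FPKM in number 2. The log2 difference was -0.68 (SE 0.06, limma adjusted p = 0.00282), yet the values of the 2 numbers overlap because the level also differed between groups, EV being highest in each number, and with the libraries unpaired the adjusted p was 0.0576. Among the 12 measured genes of the list of Myc, its partners and its rivals, 4 rose (33.3%) and 2 fell (16.7%). Over all genes 20.5% rose and 30.3% fell. The risers included Mxd1, which competes with Myc for Max, at 5.09, 5.17 and 9.59 FPKM against 10.1, 11.5 and 11.9 FPKM, and Mlx and Mlxip, which form the glucose-sensing pair related to Max and Myc. Max, named after its values were seen, stood at 40.6, 39.6 and 36.8 FPKM and 34.03, 33.4 and 35.4 FPKM and was not called. The calls of Mxd1 and Mlx were lost without 1 EV or sg2 library. The limma adjusted p was then 0.113 to 0.126 for Mxd1 and 0.0514 to 0.0539 for Mlx.

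Genes that build ribosomes and start translation were lower too. Of 79 ribosome biogenesis genes, 46 fell and 4 rose (median -0.43), of 44 translation factors 30 fell and 2 rose (median -0.50), and of 79 cytosolic ribosomal protein genes 44 fell and 2 rose (median -0.30). The ribosomal protein genes are abundant, summing to 111165 to 118358 FPKM in number 1. Of all genes compared, the fifth with the highest mean FPKM had a median of -0.21, nearer to theirs than the median of -0.07 over all. Fbl, the methyltransferase fibrillarin that modifies ribosomal RNA, measured 154, 140.3 and 101 FPKM in number 1 and 52.3, 47.6 and 46.04 FPKM in number 2. The 3 number 2 values lay below the 3 number 1 values, by -1.40 on the log2 scale (SE 0.11). The helicase gene Eif4a1 stood at 506, 487 and 359.9 FPKM and 130.4, 135 and 124 FPKM. All pairs moved alike and the numbers were apart (log2 difference -1.77, SE 0.10, limma adjusted p = 0.00179). In both genes the sg5 pair differed least, and the biogenesis list as a whole had pair medians of -0.59 (EV), -0.50 (sg2) and -0.22 (sg5). All 3 lists stayed below 0 in the median when protein-coding genes were scaled to 1 sum, at -0.25, -0.32 and -0.11, while the biogenesis genes that fell then numbered 29. Of 23 cytosolic tRNA synthetases 21 fell and none rose (median -0.62), Iars, the isoleucine enzyme, from 33.03, 32.6 and 30.1 FPKM to 13.7, 15.3 and 14.7 FPKM.

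Within the cell cycle, most DNA replication genes were lower and mitosis genes were mixed. Of 62 genes for DNA replication and nucleotide synthesis, 51 fell and 1 rose (median -0.55). Tyms, which makes thymidylate, measured 182, 185 and 164 FPKM in number 1 and 64.6, 66.9 and 63.6 FPKM in number 2. In number 2 the mean was 2.72-fold lower, and no library of it reached those of number 1. Mcm5, a subunit of the replicative helicase, stood at 110.0, 107 and 99.3 FPKM and 50.8, 47.7 and 40.2 FPKM. With a log2 difference of -1.18 (SE 0.07), its values did not overlap between the numbers. Pcna, the sliding clamp of DNA polymerase, fell from 305, 306 and 285 FPKM to 159, 140.3 and 135 FPKM, and the G1/S cyclin gene Ccne1 from 27.9, 29.6 and 22.5 FPKM to 11.3, 12.03 and 11.4 FPKM. Over the list of G1 cyclins, CDK inhibitors and E2F factors, 7 of 29 genes rose and 8 fell (median -0.06, and 0.01 with median-ratio scaling). These are 24.1% and 27.6% of the list, near the 20.5% and 30.3% over all genes.

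Of 63 mitosis genes, 10 rose (15.9%), 18 fell (28.6%) and 35 were not called, near the 20.5% and 30.3% over all genes. Their median of -0.05 lay near that of all genes and turned to 0.03 with median-ratio scaling and 0.14 with the protein-coding sum. With these scalings 16 rose and 13 fell, and 26 rose and 10 fell. Mki67, a marker of cycling cells, measured 87.9, 79.3 and 101 FPKM in number 1 and 81.1, 86.8 and 77.8 FPKM in number 2. Its values overlap and its log2 difference of -0.12 (SE 0.11) was not called. Ccnd3, a D-type cyclin of G1, stood at 182, 174 and 170.4 FPKM and 175, 187 and 166 FPKM, also with overlap and no call. Some mitotic genes rose, among them Pttg1, the securin that holds back separase, at 94.5, 112 and 107 FPKM against 172, 187 and 227 FPKM, and the centromeric histone gene Cenpa, at 120.4, 132 and 145 FPKM against 190.5, 213 and 214 FPKM. In both, all number 2 libraries lay above all number 1 libraries. The fall of replication genes and the change of mitotic genes were not tested against each other.

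Of the 30 replication-dependent histone genes past the filter, out of 66 listed, 5 passed through number 2 alone and 1 through number 1 alone, so their counts are set in part by the filter. In all 9 rose and none fell (median 0.46), and of the 24 that averaged at least 1 FPKM in both numbers 7 rose and none fell. Their pair medians were 0.06 (EV), 1.14 (sg2) and 0.46 (sg5). Hist1h1b, a linker histone, measured 1.27, 1.45 and 2.63 FPKM in number 1 and 2.85, 13.8 and 17.7 FPKM in number 2. The 2 number 2 guide libraries stood far above the other 4, and the limma adjusted p was 0.0919 to 0.098 without 1 sg2 or sg5 library. Histone messages mostly lack poly(A) tails, which matters if RNA was selected by them, and have near-identical copies, so their values are uncertain here.

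**Figure D2:**
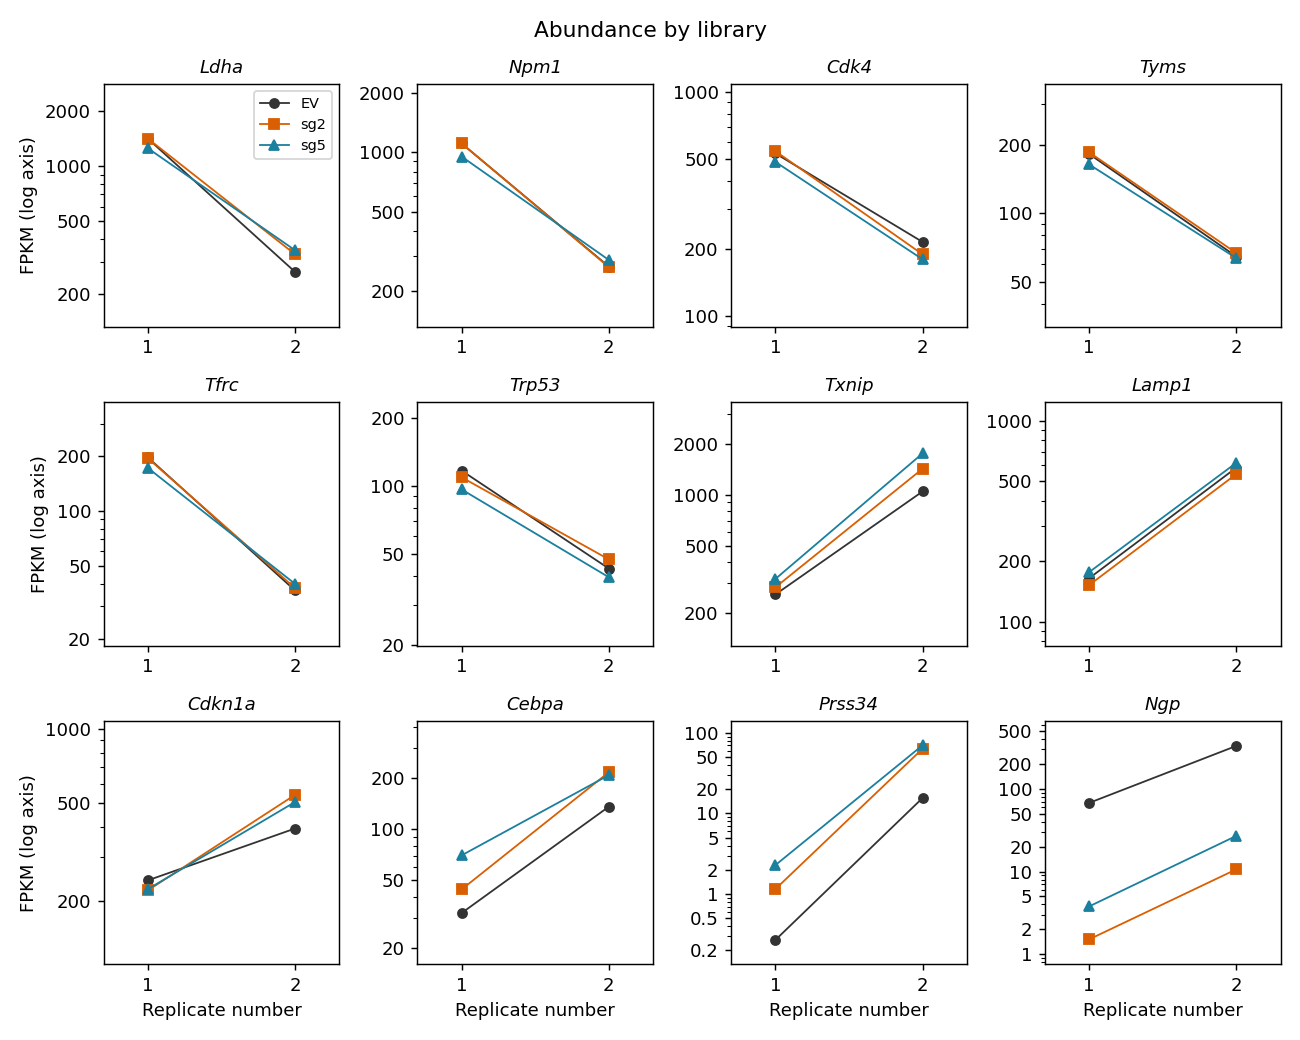
FPKM of 12 genes in each library on a log axis, number 1 at the left and number 2 at the right of each panel, with a line joining the 2 libraries of a group. Ldha, Npm1, Cdk4, Tyms, Tfrc and Trp53 fall in all 3 pairs, Txnip, Lamp1, Cdkn1a, Cebpa and Prss34 rise in all 3, and Ngp rises in all 3 from a level that differs between EV and the guides.

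Transcripts of most energy metabolism genes were lower in number 2. Of 26 glycolysis genes, 16 fell and 1 rose (median -0.86). Ldha, the lactate dehydrogenase subunit that turns pyruvate into lactate, measured 1415, 1416 and 1253 FPKM in number 1 and 264, 329 and 346 FPKM in number 2. Every number 2 library was below every number 1 library, and the log2 difference was -2.12 (SE 0.12, limma adjusted p = 0.00181). Tpi1, triose phosphate isomerase, stood at 860.0, 866 and 922 FPKM and 125, 166 and 208 FPKM, and Pfkl, a phosphofructokinase, at 141, 138 and 138 FPKM and 29.4, 32.7 and 32.03 FPKM. The groups did not overlap, and the mean was 4.42-fold lower in number 2 (log2 difference -2.11, SE 0.07). Gapdh, often used as a reference gene and named here after its values were seen, stood at 2372, 2427 and 2383 FPKM and 733, 916 and 1103 FPKM. The 1 gene of the list that rose was Pfkfb3, which makes an activator of phosphofructokinase, named after its values were seen (log2 difference 0.45, SE 0.07, limma adjusted p of 0.0553 to 0.0573 without 1 EV library). Eno3, the muscle-type enolase, which is outside the list, rose from 7.40, 9.62 and 10.3 FPKM to 56.4, 69.9 and 69.1 FPKM. There was no overlap between the numbers, with a log2 difference of 2.72 (SE 0.07). Eno1, the common enolase, named after its values were seen, moved the other way, from 487, 457 and 439.6 FPKM to 126, 129.8 and 153 FPKM.

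Mitochondrial genes were lower as well. Of 78 nuclear genes for oxidative phosphorylation 64 fell and 3 rose (median -0.53), of 30 citrate cycle genes 26 fell and 1 rose (median -0.58), and of 77 mitochondrial ribosomal protein genes 57 fell and 1 rose (median -0.51). Atp5b, the catalytic subunit of ATP synthase, measured 649, 644 and 532 FPKM in number 1 and 214, 206 and 197 FPKM in number 2. The mean was 2.96-fold lower in number 2, with the 3 libraries of each number apart. Slc25a5, which exchanges ADP for ATP across the inner membrane, was among the 15 genes that fell most, from 535, 528 and 440.5 FPKM to 85.7, 85.3 and 75.3 FPKM. The 3 number 2 values lay below the 3 number 1 values, by -2.59 on the log2 scale (SE 0.06). The pair medians of these 3 lists stood between -0.60 and -0.47.

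Sterol and fatty acid genes were also lower in most cases. Of 30 cholesterol synthesis and sterol-responsive genes 22 fell and 3 rose (median -0.66). Fdps, which makes farnesyl diphosphate, measured 251, 264 and 281 FPKM in number 1 and 96.5, 90.9 and 101 FPKM in number 2. All pairs moved alike and the numbers were apart (log2 difference -1.45, SE 0.06, limma adjusted p = 0.00156). Lss, which closes the sterol rings, stood at 31.1, 28.98 and 27.5 FPKM and 8.57, 9.28 and 9.82 FPKM. In number 2 the mean was 3.17-fold lower, and no library of it reached those of number 1. Mthfd1l, a mitochondrial folate enzyme of the Myc-responsive list, fell from 48.6, 45.6 and 44.7 FPKM to 6.20, 8.26 and 8.69 FPKM, and Phgdh, the first enzyme of serine synthesis, from 283, 256 and 178 FPKM to 68.1, 73.7 and 60.8 FPKM. All number 2 libraries were below all number 1 libraries for both. Of 28 fatty acid genes 3 rose and 15 fell (median -0.34).

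Of the 29 amino acid response genes, to which Phgdh belongs, 7 rose (24.1%) and 10 fell (34.5%), near the 20.5% and 30.3% over all genes. Their median was -0.16, and 0.02 with the protein-coding sum. Atf4, the transcription factor of this response, measured 82.7, 86.1 and 86.98 FPKM in number 1 and 27.6, 38.2 and 42.3 FPKM in number 2. With a log2 difference of -1.24 (SE 0.12), its values did not overlap between the numbers. Asns, asparagine synthetase, went the other way, from 63.1, 57.7 and 69.8 FPKM to 86.3, 77.9 and 91.4 FPKM. Every number 2 library was above every number 1 library, and the log2 difference was 0.42 (SE 0.06, limma adjusted p = 0.00609). Protein folding and turnover genes were lower, with 15 of 25 genes of the unfolded protein response fallen and 2 risen (median -0.36), 22 of 31 heat shock and cytosolic chaperone genes fallen and 1 risen (median -0.54), and 37 of 44 proteasome genes fallen and 2 risen (median -0.49). With the protein-coding sum, 8 genes of the unfolded protein response fell and 4 rose. Hsp90ab1, the constitutive form of HSP90, measured 1333, 1311 and 1140.3 FPKM in number 1 and 351, 376 and 363 FPKM in number 2. The groups did not overlap, and the mean was 3.47-fold lower in number 2 (log2 difference -1.79, SE 0.07). The 2 proteasome genes that rose were Psmb8 and Psmb9, interferon-inducible subunits, Psmb9 from 177, 180.1 and 189 FPKM to 414, 423 and 398 FPKM. Psmb10, the third inducible catalytic subunit, fell from 29.2, 26.6 and 19.5 FPKM to 8.52, 7.12 and 5.46 FPKM.

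**Figure D3:**
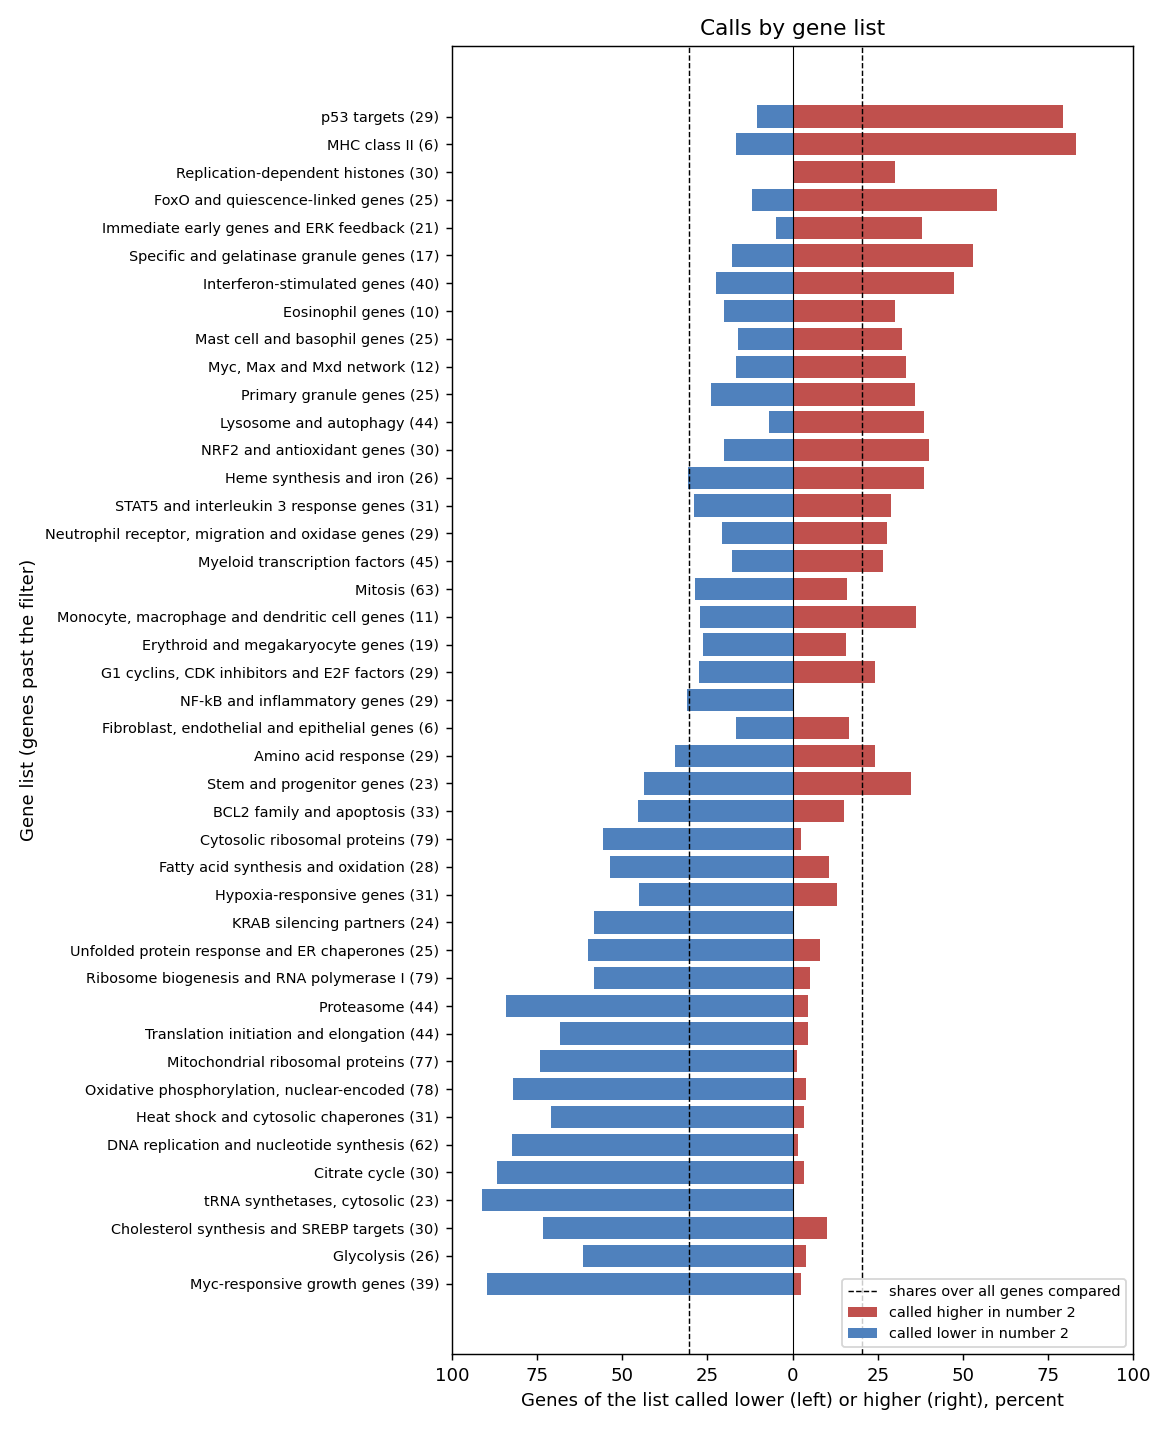
Share of each list's measured genes called higher (right) or lower (left) in number 2, in percent, with dashed lines at the shares over all 10581 genes, 20.5% higher and 30.3% lower. The Myc-responsive, ribosome biogenesis, replication, mitochondrial and proteasome lists are among those past the left line. Past the right line, MHC class II reaches furthest (83.3% of 6 genes). The p53 target, quiescence-linked, specific granule, interferon, NRF2 and lysosome lists are among the others past it.

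Genes of growth arrest and recycling were higher. Of 29 p53 targets, 23 rose and 3 fell (median 0.88, pair medians 0.69 to 0.80). Cdkn1a, which encodes the cyclin-dependent kinase inhibitor p21, measured 242, 220.3 and 223 FPKM in number 1 and 394, 539.9 and 505 FPKM in number 2. There was no overlap between the numbers, with a log2 difference of 1.06 (SE 0.13). Trp53inp1, a p53-induced regulator of arrest and death, stood at 42.5, 42.5 and 50.03 FPKM and 168, 171 and 187 FPKM. The mean was 3.90-fold higher in number 2, with the 3 libraries of each number apart. Btg2, an antiproliferative partner of mRNA deadenylation, rose from 18.5, 21.4 and 21.8 FPKM to 48.5, 80.1 and 84.5 FPKM, and Mdm2, the ubiquitin ligase of p53 that p53 itself induces, named after its values were seen, from 71.5, 73.8 and 81.96 FPKM to 129, 212 and 272 FPKM (limma adjusted p of 0.0511 to 0.0516 without 1 sg2 library). The message of p53 went the other way: Trp53 measured 117, 109 and 96.7 FPKM in number 1 and 43.3, 47.5 and 39.7 FPKM in number 2. The 3 number 2 values lay below the 3 number 1 values, by -1.29 on the log2 scale (SE 0.07).

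Of 25 FoxO and quiescence-linked genes, 15 rose and 3 fell (median 0.41). Txnip, the thioredoxin-binding arrestin that restrains glucose uptake, measured 258, 284 and 318 FPKM in number 1 and 1044, 1421 and 1749 FPKM in number 2. All pairs moved alike and the numbers were apart (log2 difference 2.26, SE 0.10, limma adjusted p = 0.00167). Bcl6, a repressor that FoxO factors induce, stood at 1.22, 1.38 and 2.27 FPKM and 8.50, 9.03 and 8.51 FPKM. In number 2 the mean was 5.35-fold higher, and each library of it lay above those of number 1. Bcl2l11, which encodes the death-promoting protein BIM and was counted in the BCL2 family list, rose from 8.75, 10.8 and 10.4 FPKM to 25.2, 31.6 and 28.9 FPKM, with no overlap. Cdkn1b, the inhibitor p27, did not follow, with 25.3, 28.5 and 33.8 FPKM in number 1, 23.97, 24.3 and 29.4 FPKM in number 2 and no call. Ccng2, another gene of the quiescence-linked list, fell from 58.4, 70.8 and 80.1 FPKM to 31.9, 42.2 and 42.5 FPKM. In the BCL2 family and apoptosis list 5 of 33 genes rose and 15 fell (median -0.25).

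Of 44 lysosome and autophagy genes, 17 rose and 3 fell (median 0.20), and with the protein-coding sum 30 rose and 2 fell. Lamp1, a main protein of the lysosome membrane, measured 164, 152 and 176 FPKM in number 1 and 584, 543 and 618 FPKM in number 2. With a log2 difference of 1.82 (SE 0.05), its values did not overlap between the numbers. Ctsd, the protease cathepsin D, rose from 188, 192 and 209 FPKM to 349, 364 and 367 FPKM, and Gabarapl1, a protein of the autophagosome membrane, from 68.4, 66.5 and 61.96 FPKM to 126, 125 and 127 FPKM. In both, the 3 libraries of each number kept apart.

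Iron genes changed in both directions. Tfrc, the transferrin receptor that takes iron up, was among the 15 genes that fell most, at 196, 194 and 172 FPKM in number 1 and 36.7, 37.8 and 39.9 FPKM in number 2. Every number 2 library was below every number 1 library, and the log2 difference was -2.27 (SE 0.08, limma adjusted p = 0.00156). Fth1, the heavy subunit of the iron store ferritin, stood at 833, 845 and 739 FPKM and 2059, 2351 and 1789 FPKM. The groups did not overlap, and the mean was 2.56-fold higher in number 2 (log2 difference 1.35, SE 0.07). Ftl1, the light subunit, rose from 3626, 3496 and 3141 FPKM to 5734, 5744 and 4468 FPKM (limma adjusted p = 0.154 with no filter on low values). Slc25a37, the mitochondrial iron importer, rose by 1.08 (SE 0.07). Over the heme and iron list, 10 of 26 genes rose (38.5%) and 8 fell (30.8%), beside 20.5% and 30.3% over all genes (median 0.08). Of 30 NRF2 and antioxidant genes 12 rose and 6 fell (median 0.17). Gstm1, a glutathione transferase held in the primary granule list, rose from 4.37, 3.76 and 8.78 FPKM to 37.9, 48.4 and 60.04 FPKM. There was no overlap between the numbers, with a log2 difference of 2.96 (SE 0.16).

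Signalling genes did not move as 1 block. The shared beta chain of the interleukin 3 receptor, Csf2rb, fell from 139, 163 and 197 FPKM to 69.5, 97.1 and 95.1 FPKM, and its mouse-specific copy Csf2rb2 from 67.2, 82.3 and 109 FPKM to 29.8, 42.03 and 43.98 FPKM, both without overlap, though fragments of these near copies may have been shared. The alpha chain Il3ra measured 33.5, 38.4 and 46.6 FPKM and 45.4, 61.8 and 50.03 FPKM and was not called (limma adjusted p = 0.0533, and 0.0339 with median-ratio scaling). Of 31 STAT5 and interleukin 3 response genes 9 rose and 9 fell (median 0.06, with an EV pair median of -0.04). Each count is 29.0% of the list, beside 20.5% higher and 30.3% lower over all genes. Socs2, a STAT5-induced feedback inhibitor, fell by 0.74 on the log2 scale (SE 0.14), while Cish, another, rose by 0.33 (SE 0.08) and the STAT5-induced kinase gene Pim1 by 0.48 (SE 0.11). These 3 calls rest on few libraries: the limma adjusted p was 0.0721 to 0.0902 without 1 EV or sg5 library for Socs2, 0.0749 to 0.119 without 1 EV or sg2 or sg5 library for Cish, and 0.0683 to 0.114 without 1 sg2 or sg5 library and 0.0895 with the libraries unpaired for Pim1. Of 21 immediate early genes and ERK feedback genes 8 rose and 1 fell (median 0.40, pair medians 0.06, 0.64 and 0.52). Of 29 NF-kB and inflammatory genes none rose and 9 fell (31.0%, near the 30.3% over all genes, median -0.09), and with the protein-coding sum 3 rose and 5 fell. Among the 9 was Nfkbiz, an inducible nuclear IkB protein, from 20.1, 21.7 and 24.4 FPKM to 8.14, 9.85 and 9.81 FPKM.

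Of 40 interferon-stimulated genes, 19 rose and 9 fell (median 0.32). Tap1, which pumps peptides to class I molecules, measured 79.5, 80.2 and 89.1 FPKM in number 1 and 165, 180.3 and 158 FPKM in number 2. The mean was 2.02-fold higher in number 2, with the 3 libraries of each number apart. Mx1, an antiviral GTPase, stood at 4.11, 4.21 and 4.12 FPKM and 8.62, 11.6 and 13.2 FPKM. The 3 number 2 values lay above the 3 number 1 values, by 1.22 on the log2 scale (SE 0.13). Of the 6 measured MHC class II genes 5 rose and 1 fell (median 0.74). H2-Ob, the beta chain of the peptide-loading regulator H2-O, was the second largest rise of all called genes averaging 10 FPKM or more, from 5.53, 6.24 and 6.54 FPKM to 125, 118 and 126 FPKM. All pairs moved alike and the numbers were apart (log2 difference 4.13, SE 0.08, limma adjusted p = 0.00139). Its partner H2-Oa rose by only 0.69 (SE 0.10), with a limma adjusted p of 0.0503 to 0.0546 without 1 EV or sg2 library. Cd74, the invariant chain that escorts class II molecules, fell from 15.7, 17.9 and 11.6 FPKM to 3.03, 3.59 and 3.48 FPKM, and H2-Ab1, a class II molecule itself, was at or near 0 in all 6 libraries.

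Differentiation genes went in both directions. Cebpa, the factor that starts granulocyte development, measured 32.2, 44.3 and 70.2 FPKM in number 1 and 136, 216 and 208 FPKM in number 2. In number 2 the mean was 3.82-fold higher, and each library of it lay above those of number 1. Spi1, which encodes the myeloid factor PU.1, stood at 137, 129 and 128 FPKM and 135, 116 and 103 FPKM, with overlap and no call. Of 45 myeloid transcription factors 12 rose (26.7%) and 8 fell (17.8%), with a median of 0.01, beside 20.5% and 30.3% over all genes. With the protein-coding sum 19 rose and 3 fell. Cebpe measured 42.02, 14.4 and 19.4 FPKM and 100.4, 18.7 and 22.7 FPKM. It was higher in number 2 in each pair but was not called (log2 difference 0.60, SE 0.22, limma adjusted p = 0.0813, and 0.0404 with the protein-coding sum), and the EV libraries stood above the guide libraries of both numbers. Gata2, a progenitor factor also used by mast cells, stood at 384, 406 and 459.7 FPKM and 437, 585 and 476 FPKM and was not called (limma adjusted p = 0.114, and 0.0295 with the protein-coding sum).

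Granule genes went both ways. Of 25 primary granule genes 9 rose and 6 fell (median 0.22). Mpo, myeloperoxidase, was among the 15 genes that fell most, from 151, 41.5 and 123 FPKM to 13.01, 12.3 and 14.8 FPKM. With a log2 difference of -2.69 (SE 0.35), its values did not overlap between the numbers. Prtn3, Elane (neutrophil elastase, at 1.40 to 2.50 FPKM) and Ctsg (cathepsin G) were not called, and their values overlapped. Of 17 measured specific and gelatinase granule genes, out of 30 listed, 9 rose and 3 fell (median 0.36). Ngp, a neutrophil granule protein related to cathelicidins, measured 67.7, 1.51 and 3.79 FPKM in number 1 and 331, 10.6 and 27.01 FPKM in number 2. The rise was alike in size in each pair (2.34, SE 0.09, limma adjusted p = 0.00156), but both EV libraries lay above all guide libraries, so the numbers overlap and with the libraries unpaired the adjusted p was 0.268. Ltf, lactoferrin, went from 7.67, 0.927 and 0.718 FPKM to 13.9, 2.44 and 2.70 FPKM, also rising in each pair with overlap (limma adjusted p = 0.384 unpaired). Adam8, a membrane protease of granulocytes, rose from 21.6, 10.6 and 14.6 FPKM to 111, 69.2 and 85.5 FPKM. Every number 2 library was above every number 1 library, and the log2 difference was 2.46 (SE 0.08, limma adjusted p = 0.00151). S100a8 and S100a9, the abundant calcium-binding proteins of neutrophils, were not called. Serpina3g, a serpin of immature blood cells, had the largest fall of all called genes averaging 10 FPKM or more, from 461, 403 and 206 FPKM to 23.5, 17.6 and 17.8 FPKM. The groups did not overlap, and the mean was 18.2-fold lower in number 2 (log2 difference -4.05, SE 0.20).

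Genes of neighbouring lineages were also mixed. Prss34, the basophil and mast cell protease, had the largest rise, from 0.269, 1.15 and 2.29 FPKM to 15.6, 63.6 and 70.1 FPKM. There was no overlap between the numbers, with a log2 difference of 4.35 (SE 0.24). Of 25 mast cell and basophil genes 8 rose (32.0%) and 4 fell (16.0%), beside 20.5% and 30.3% over all genes (median 0.27). With the protein-coding sum 13 rose and 3 fell. Cpa3, mast cell carboxypeptidase, rose from 80.5, 110.2 and 191 FPKM to 217, 247 and 313 FPKM (limma adjusted p of 0.0508 to 0.0512 without 1 sg2 library), whereas the basophil protease gene Mcpt8 was not called. Tpsb2 and Cma1, proteases of mature mast cells, stayed under 0.21 FPKM. Epx, eosinophil peroxidase, measured 75.5, 8.77 and 35.1 FPKM and 253, 55.1 and 61.6 FPKM, rising in each pair with overlap (limma adjusted p of 0.0579 to 0.0949 without 1 EV or sg2 library, and 0.156 unpaired), while the other eosinophil markers Prg2, Il5ra and Ccr3 stayed under 0.86 FPKM. Clec12a, an inhibitory lectin of myeloid cells, rose from 67.02, 44.4 and 54.5 FPKM to 339, 178 and 178 FPKM, and Ly6a, the stem cell antigen Sca-1, from 6.10, 5.54 and 4.01 FPKM to 57.2, 80.8 and 76.9 FPKM, both without overlap. Of 23 stem and progenitor genes 8 rose (34.8%) and 10 fell (43.5%), with a median of -0.19, and with the protein-coding sum 9 rose and 5 fell. Bmi1, a Polycomb gene of self-renewal, fell from 15.6, 19.4 and 14.3 FPKM to 4.50, 3.87 and 2.44 FPKM. The mean was 4.56-fold lower in number 2, with the 3 libraries of each number apart.

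Other genes with the largest changes belong to none of these programmes alone. Fxyd1, a small regulator of the sodium pump, rose from 0.119, 0.262 and 0.323 FPKM to 11.8, 29.3 and 18.4 FPKM, and Cd300lb, an activating receptor of myeloid cells, from 1.33, 0.630 and 0.515 FPKM to 21.9, 21.4 and 16.4 FPKM. Both averaged under 1 FPKM in number 1, so they met the filter only through number 2, where they are high, and the log2(FPKM + 1) difference understates their ratio. Rising genes that averaged under 10 FPKM in number 1, such as Prss34 and H2-Ob, likewise met the limit of 10 FPKM for naming through number 2. Haao, an enzyme of tryptophan breakdown, rose from 3.87, 3.75 and 4.18 FPKM to 32.9, 35.5 and 31.02 FPKM. The 3 number 2 values lay above the 3 number 1 values, by 2.79 on the log2 scale (SE 0.09). Among the falls, the calcium-binding protein gene S100a4 measured 155, 174 and 149.5 FPKM in number 1 and 25.8, 18.1 and 20.6 FPKM in number 2. All pairs moved alike and the numbers were apart (log2 difference -2.85, SE 0.14, limma adjusted p = 0.00171). Ltb, which encodes lymphotoxin beta, fell from 152, 159 and 119 FPKM to 28.3, 36.8 and 27.3 FPKM, and the cytokine gene Mif from 1416, 1310.0 and 1132 FPKM to 198, 354 and 335 FPKM, in which the EV pair differed most. Ackr1, a decoy receptor for chemokines, fell from 9.68, 18.5 and 23.2 FPKM to 2.49, 3.31 and 3.03 FPKM, again without overlap.

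Markers of other cell types were read beside these results. Summed over its 7 markers, the mast cell and basophil set stood at 1169 to 2703 FPKM in number 1 and 2651 to 3160 FPKM in number 2, carried by Fcer1a, a chain of the IgE receptor. The 6 monocyte and macrophage markers summed to 85.4 to 105 FPKM and 151 to 169 FPKM, with C1qa at 0 in every library, and the 8 late neutrophil markers to 10.1 to 261 FPKM and 27.3 to 486 FPKM, with Retnlg at 0 in every library. The endothelial and epithelial set went from 144 to 161 FPKM up to 227 to 268 FPKM, nearly all from Pecam1, an adhesion molecule also found on blood cells, with Epcam at 0. The 3 megakaryocyte markers summed to 229 to 238.5 FPKM in number 1 and 166 to 203 FPKM in number 2, most of it Itga2b. This integrin chain fell in each pair (limma adjusted p of 0.0583 to 0.0584 without 1 EV library). The other markers of the set, at 1.12 to 31.1 FPKM, rose in the EV and sg2 pairs and were split in the sg5 pair. The eosinophil set, carried by Epx, stood at 8.91 to 76.5 FPKM and 55.3 to 253 FPKM, and the erythroid set at 8.41 to 14.4 FPKM and 7.28 to 22.8 FPKM, with overlap. The dendritic, lymphoid and fibroblast sets stayed under 4.51 FPKM in every library, with Cd3e and Dcn at 0. Of the wider lists, 8 of 29 neutrophil receptor, migration and oxidase genes rose and 6 fell (median 0.04), as did 3 and 2 of 10 eosinophil genes (median 0.30), 4 and 3 of 11 monocyte, macrophage and dendritic cell genes (median -0.05), and 3 and 5 of 19 erythroid and megakaryocyte genes (median -0.06). Over all genes, 20.5% rose and 30.3% fell. In the neutrophil list 27.6% and 20.7% did, and in the erythroid and megakaryocyte list 15.8% and 26.3%. For the eosinophil list the shares were 30.0% and 20.0%, and for the monocyte list 36.4% and 27.3%. Of 5 lymphoid genes none was called, and of 6 fibroblast, endothelial and epithelial genes 1 rose and 1 fell. The part of these cell types in the results was not tested.

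The EV pair and the guide pairs were then set against each other by an interaction term in limma, which leaves 1 residual degree of freedom and rests on 1 EV pair. After adjustment it called 0 of 10581 genes (0%), with a smallest adjusted p of 0.601. At an unadjusted p below 0.05 there were 245 genes (2.32%), and the fit on protein-coding genes alone called 15, 13 with the more positive difference in the guide pairs and 2 with the more positive difference in the EV pair. The 2 genes with the smallest p were named after their values were seen. Hilpda, a hypoxia-induced lipid droplet protein, measured 25.6, 25.5 and 25.4 FPKM in number 1 and 7.89, 34.4 and 33.7 FPKM in number 2: it was lower in the EV pair and higher in both guide pairs. Ero1l, an oxidase of the endoplasmic reticulum that hypoxia induces, did likewise, at 197, 197 and 266 FPKM against 78.5, 222 and 323 FPKM. Slc2a1, the glucose transporter GLUT1, fell in all 3 pairs but most in EV, from 58.5, 56.7 and 61.8 FPKM to 8.59, 25.04 and 25.6 FPKM, and its limma adjusted p between the numbers was 0.0502 to 0.054 without 1 sg2 or sg5 library.

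**Figure D4:**
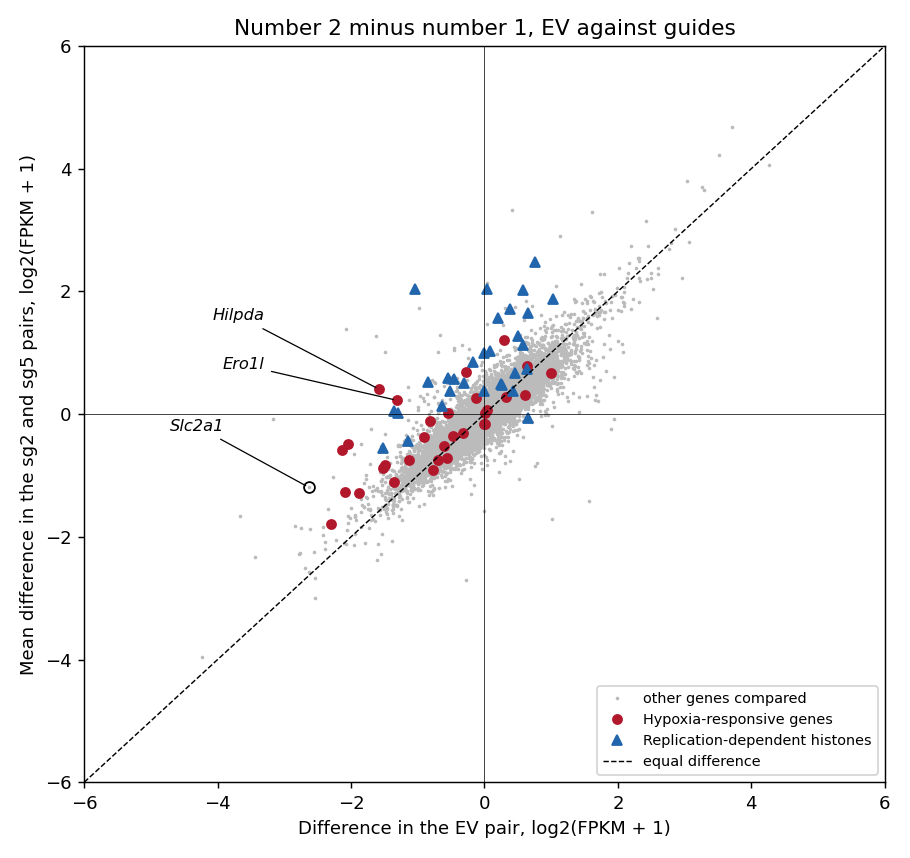
Log2(FPKM + 1) difference between the numbers in the EV pair (horizontal) against the mean of the sg2 and sg5 pairs (vertical) for 10581 genes, with hypoxia-responsive genes and replication-dependent histone genes marked and the line of equal change drawn. The median hypoxia-responsive gene lies 0.38 above the line and the median histone gene 0.96 above it, with Hilpda, Ero1l and Slc2a1 labelled.

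Of the 31 hypoxia-responsive genes, 4 rose and 14 fell between the numbers (median -0.35), and their pair medians were -0.61 (EV), -0.27 (sg2) and -0.25 (sg5). In the interaction, 13 of the 31 had an unadjusted p below 0.05, as had 11 of the 30 histone genes, 7 of the 21 immediate early and ERK feedback genes and 6 of the 29 p53 targets, beside 2.32% of all genes and with none called after adjustment over all genes. Bnip3, a mitophagy receptor that hypoxia induces, fell from 413, 400.1 and 477 FPKM to 96.5, 147 and 222 FPKM. In number 2 the mean was 2.78-fold lower, and no library of it reached those of number 1. Hif1a, the oxygen-sensitive factor, rose from 48.6, 43.8 and 55.2 FPKM to 98.4, 72.5 and 85.9 FPKM. With a log2 difference of 0.78 (SE 0.09), its values did not overlap between the numbers. Vegfa, a hypoxia-induced growth factor named after its values were seen, rose from 50.6, 46.1 and 49.9 FPKM to 61.9, 113 and 110.3 FPKM, least in EV (limma adjusted p of 0.121 to 0.125 without 1 sg2 or sg5 library).

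Genes that work with the KRAB domain of the repressor were lower too. Of 24 KRAB silencing partners 14 fell and none rose (median -0.36). Trim28, the corepressor that KRAB binds, named after its values were seen, measured 144, 135 and 127 FPKM in number 1 and 87.9, 98.5 and 87.4 FPKM in number 2. Every number 2 library was below every number 1 library, and the log2 difference was -0.56 (SE 0.07, limma adjusted p = 0.00567). Setdb1, the histone methyltransferase it recruits, also named after its values were seen, stood at 18.5, 18.9 and 18.7 FPKM and 17.2, 16.9 and 15.6 FPKM and was not called.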

How the data were processed

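The authors deposited 1 table of gene-level FPKM per library. Depth is not given. It was read from the steps between low FPKM values of 752 genes with 1 transcript of at least 4000 nt. Per library, 68 to 114 low values entered, and 93.1% to 98.2% of these fell on whole fragments within 0.15 of a fragment. The depth was chosen by searching for a high share of this kind, so the share is no separate check on it. Per the submitters' processing notes, kallisto 0.43.0, DESeq2 and the build GRCm38 (mm10) were used, in roles the notes do not give, and no step between reads and FPKM was rerun. Counts are not given, so no count model was run. Libraries were grouped by title. Gene positions and types came from GENCODE M21, and promoters from RefSeq.

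Members, lists and the rule for named genes were chosen with earlier results of these data known. Differences of log2(FPKM + 1) were fitted with limma 3.58.1 in R 4.3.3 (trend, group and replicate number as terms, 2 residual degrees of freedom) over 12929 genes with a mean FPKM of at least 1, with Benjamini-Hochberg adjustment. Pairing by group is part of the comparison, and the pairs' differences correlated at 0.841 to 0.863 over genes. Named were, of called genes without overlap and with a mean FPKM of at least 10, the 15 that rose and the 15 that fell most, up to 5 per list with the smallest p, and a fixed set of regulators and markers. Uaca, Ptprc and Fcer1a were named outside this rule, as the gene at the filter and as markers. On simulated data of 12929 genes, the fit called 73 of 100 genes with a true difference of 1 on the log2 scale, 97 of 100 with a difference of 2, and 5 unchanged genes. Only those sets of 100 genes were changed there, with independent noise, whereas 50.8% of the genes compared were called in the real libraries. The adjustment depends on that share, so the simulated rates do not carry over to the calls above. A planned exact permutation test on list sums was not run, since 3 pairs cannot give a two-sided p below 0.25. Tables and plots used Python 3.11.15, numpy 2.4.6, pandas 2.3.3 and matplotlib 3.10.9. Alternatives covered scaling, pseudocount, filter, genes in the fit, pairing, test, each library left out and 1 label.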

Additional observations from a re-analysis of the deposited data

Results flagged for a closer look

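Genes that do not code for proteins were outside the 10581 genes compared but in the same files. Of 2348 such genes past the filter, 452 (19.3%) were called higher in number 2 and 267 (11.4%) lower by the same limma fit. Gm15662, annotated as an unprocessed pseudogene, stood at 27008, 44059 and 40852 FPKM in number 1 and at 87906, 98102 and 90262 FPKM in number 2, in the order EV, sg2 and sg5 (log2 difference 1.33). Mir6236, annotated as a miRNA gene, stood at 40532, 60451 and 63425 FPKM and at 121631, 165353 and 114764 FPKM (log2 difference 1.30). With protein-coding genes scaled to 1 sum, which leaves these features out of the scale, the median protein-coding gene moved from -0.07 to 0.10. The long nuclear RNA Neat1 was at 266, 294 and 317 FPKM and at 645, 730 and 778 FPKM (log2 difference 1.29). Malat1, another nuclear RNA, was at 31.03, 27.3 and 31.99 FPKM and at 69.2, 58.2 and 56.7 FPKM (log2 difference 1.00). In each of these 4 genes the libraries of the 2 numbers did not overlap.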

How the results depend on the processing

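Of 91 called genes named in the text, none changed direction under any of 12 alternatives that keep all 6 libraries or 6 that leave 1 out. The call was lost by 12 of them under some alternative of the first kind and by 14 without some library. With no filter, Cish, Epx, Ftl1, Hist1h1b, Mxd1, Pim1, Slc2a1, Socs2 and Vegfa were not called (limma adjusted p = 0.0531 to 0.154). Cebpe was called under 3 of all these alternatives, Gata2 under 2, Fcer1a under 7 and Il3ra under 9. With no term for the group, the 3 libraries of each number being compared unpaired, 2341 genes were called higher and 3435 lower. Epx, Ltf, Myc, Ngp and Pim1 then lost the call while Max and Uaca gained it. With protein-coding genes scaled to 1 sum, 3408 were called higher and 2027 lower, and with no filter on low values 1431 were called higher. With 1 library left out, the counts ran from 962 to 1484 higher and from 1623 to 2292 lower. For the difference between guide and EV pairs, 15 genes were called with protein-coding genes alone in the fit and 0 under the others run; with 1 library left out it could not be fitted.

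The values below changed sign, and none of these genes was called. With protein-coding genes scaled to 1 sum, the median log2 difference was 0.099 over all genes compared, 0.14 for mitosis, 0.11 for G1 cyclins, CDK inhibitors and E2F factors, 0.017 for the amino acid response, 0.088 for NF-kB genes, 0.099 for monocyte genes, 0.076 for erythroid and megakaryocyte genes and 0.023 for fibroblast, endothelial and epithelial genes. The log2 difference was then 0.016 for Cdkn1b, 8.1e-05 for Max, 0.065 for Mki67, 0.019 for Ptprc, 0.082 for S100a8, 0.013 for Setdb1 and 0.023 for Spi1. With median-ratio scaling, the median was 0.0030 over all genes compared, 0.031 for mitosis, 0.011 for the G1 list, 0.013 for monocyte genes and 0.011 for erythroid genes, and S100a8 stood at 0.0039. With quantile normalization, mitosis stood at 0.12, the G1 list at 0.0041, Elane at -0.12, Mcpt8 at -0.15, Mki67 at 0.036, S100a9 at -0.038 and Spi1 at 0.020. With a pseudocount of 0.1 S100a8 stood at 0.036, and with 5 Mcpt8 stood at -0.017 and S100a9 at -0.085. With a mean FPKM of at least 5, the list of neutrophil receptor, migration and oxidase genes stood at -0.011, monocyte genes at 0.35 and stem and progenitor genes at 0.063. With sg5 replicate 2 taken as sg2, Ccnd3 stood at -0.015, Ctsg at 0.37 and S100a8 at 0.11.

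With 1 library left out, the medians that crossed 0 ran from -0.063 to 0.011 for mitosis, from -0.15 to 0.28 for monocyte genes, from -0.027 to 0.10 for myeloid transcription factors and from -0.24 to 0.030 for erythroid genes. Log2 differences ran from -0.045 to 0.032 for Ccnd3, from -0.47 to 0.098 for Ctsg, from -0.21 to 0.30 for Elane, from -0.57 to 0.22 for Ero1l, from -0.59 to 0.41 for Hilpda, from -0.16 to 0.20 for Mcpt8, from -0.24 to 0.0077 for Mki67, from -0.24 to 0.23 for S100a8 and from -0.46 to 0.27 for S100a9. The cause was not tested, except that each fit with a library left out rests on 2 pairs. At the depths implied, 3 fragments of a gene 1 kb long come to 0.065 to 0.096 FPKM, which covers counting error only.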
